A study of Mus musculus with 3 samples.

Results

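Type I interferons are cytokines that cells release when they sense foreign or misplaced nucleic acid. They bind the receptor IFNAR, which activates the kinases JAK1 and TYK2. The kinases phosphorylate STAT proteins, and STAT2 joins IRF9 in a complex named ISGF3. ISGF3 binds the interferon-stimulated response element (ISRE) in front of interferon-stimulated genes (ISGs). In the liver, both hepatocytes and the resident macrophages (Kupffer cells) respond to interferon. The 9 genes described here belong to this pathway and were chosen by their symbols. They are the ubiquitin-like modifier Isg15 and its protease Usp18, the RNA-binding effectors Ifit1, Ifit2 and Ifit3, the antiviral enzyme Rsad2 (viperin), and the transcription factors Irf7, Irf9 and Stat2. All 9 symbols were found among the 23361 genes of the files. Each reached an FPKM of 1 or more somewhere in the 3 libraries, the filter that 10792 genes passed.

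The samples are livers of C57BL/6J mice, 8 to 10 weeks old, from groups of 6 mice that were fasted and then operated on under chloral hydrate anesthesia. The Sham group had a laparotomy, no occlusion, and 90 min of waiting. The warm ischemia (WI) group had the vessels to the left and median lobes clamped for 90 min, and the ischemia-reperfusion (IR) group had the same clamping followed by 2 h of reperfusion. The data hold 1 mRNA library per group, and whether a library pools several mice is not stated. No Sham livers were taken at the later time of the IR livers, so reperfusion and the longer time after surgery cannot be told apart. With 1 library per group no test between mice was possible. Levels are FPKM (fragments mapped to a gene, relative to transcript length and library size) with the 95% bounds that the authors' software gave, which cover counting and model error only. Counts are not given in the files, and the depth behind each value is unknown. Differences are on the scale of log2(FPKM + 1), which understates those of genes with low FPKM. A gene was called higher or lower when FPKM + 1 differed at least 2-fold, which is 1 on the log2 scale. The ± beside a difference is a model standard error computed from the bounds.

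All libraries are labelled male, and not all of them match that label. Xist, the RNA that silences an X chromosome in female cells, was at 18.9 FPKM in Sham, 20.1 in WI and 1.29 in IR. The Y-linked gene Eif2s3y was listed at 0 in Sham and WI and at 13.2 FPKM in IR. The Sham and WI libraries go against their label. In every comparison with the IR sample, sex therefore cannot be told apart from treatment, whereas Sham and WI were alike in these genes. Hepatocyte markers were high in all 3 libraries, with Ttr at 4241, 4591 and 5765 FPKM in the order Sham, WI, IR. Alb is listed at 0 in each with a status that marks too many fragments to process. The medians of the differences over the 10792 genes were 0.02 for WI against Sham, 0.03 for IR against WI and 0.05 for IR against Sham.

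Windows at the start of the genes were searched for exact letters of the ISRE that ISGF3 binds. RefSeq windows of 250 bases before and 50 bases after a start site, in GRCm38.p6 (the same assembly as mm10), were found for 8 of the 9 genes, all but Usp18. The ISRE core was searched as GAAANNGAAA on both strands, which reads TTTCNNTTTC on the other strand. It was present for 5 of these 8 genes (Isg15, Ifit1, Ifit3, Rsad2 and Stat2). Of 8093 genes that passed the filter and had a window, 317 (3.92%) held it. Of 35 other ISGs with a window, from a list given below, 13 (37.1%) held it. Counted by window, the share was 3.44% of all 32851. The core was found 3 times for Isg15, in overlapping copies, and 2 times each for Ifit1 and Ifit3. An ISRE outside a window or with other letters would be missed. No core was in the windows of Ifit2, Irf7 or Irf9. The stretches that hold it are printed because the core is the sequence these 5 genes share. They run 5′ to 3′ toward the gene, with the core in capitals.
Isg15 (chr4:156200845-156200926, minus strand): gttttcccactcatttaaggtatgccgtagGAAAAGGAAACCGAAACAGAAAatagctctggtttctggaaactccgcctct
Ifit1 (chr19:34640755-34640843, plus strand): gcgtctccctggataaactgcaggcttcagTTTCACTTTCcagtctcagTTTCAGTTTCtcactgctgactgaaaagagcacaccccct
Ifit3 (chr19:34583343-34583446, plus strand): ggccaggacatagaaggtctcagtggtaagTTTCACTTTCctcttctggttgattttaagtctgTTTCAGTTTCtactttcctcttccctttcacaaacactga
Rsad2 (chr12:26456533-26456602, minus strand): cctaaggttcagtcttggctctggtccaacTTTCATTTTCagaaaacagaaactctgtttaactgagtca
Stat2 (chr10:128270248-128270315, plus strand): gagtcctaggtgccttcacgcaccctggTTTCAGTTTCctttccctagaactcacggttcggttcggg

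Counted from the base at the start, the cores spanned positions -78 to -57 of Isg15, -104 to -76 of Ifit1, -156 to -113 of Ifit3, -120 to -111 of Rsad2 and -222 to -213 of Stat2. The RefSeq start was that of the gene in the files for each of these genes but Stat2, where they were 78 bases apart. The other element of interferon signaling, the GAS element bound by STAT dimers, was searched as TTCNNNGAA, which reads the same on both strands. It was in 1 of 2 windows of Ifit2 and in no other member with a window. Its share was 8.30% of all windows and 8.46% of the genes that passed the filter and had a window. A match of letters is a description and not a binding site.

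**Figure D1:**
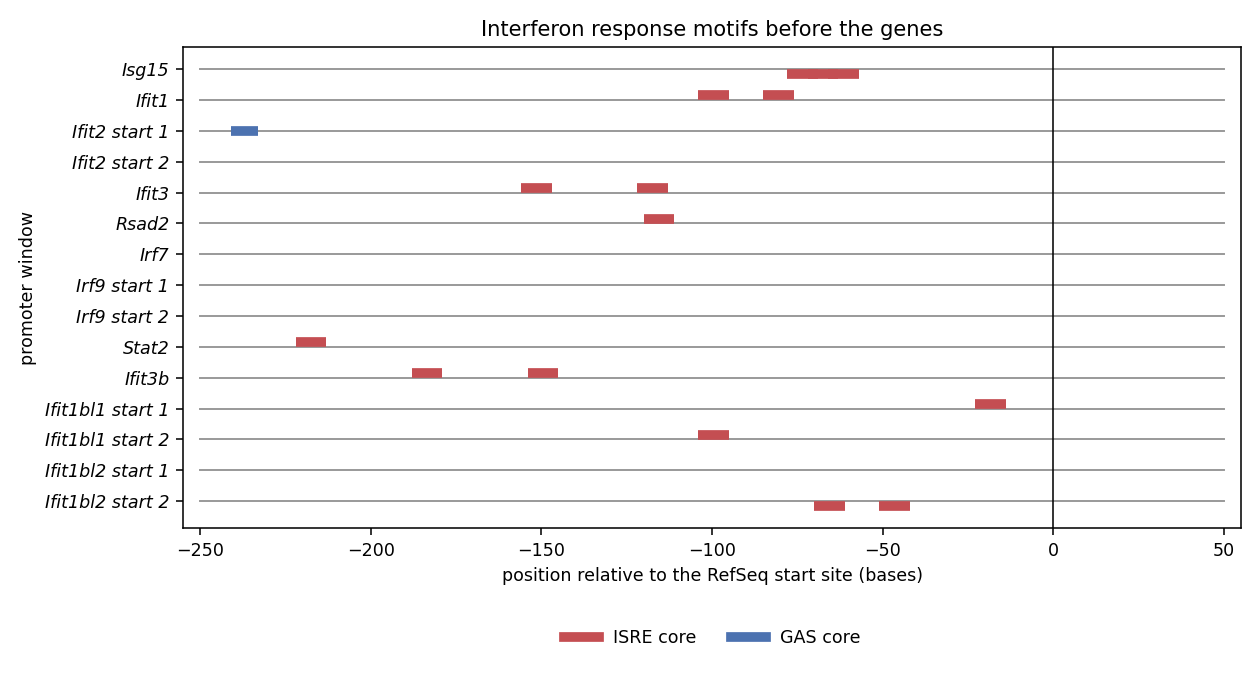
Positions of the ISRE core (red) and the GAS core (blue) in RefSeq promoter windows of 8 of the 9 genes and of 3 relatives of the Ifit genes, in bases from the start site (vertical line), with ISRE bars above a line for cores read as TTTC repeats on the gene's strand and below it for GAAA repeats. Isg15 has 3 overlapping cores nearest its start among the members.

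Of the 10792 genes that passed the filter, 8093 had a window under the same symbol and 317 of those held an ISRE core. Their median difference was 0.05 for WI against Sham, 0.00 for IR against WI and 0.05 for IR against Sham, where that of the 7776 genes without the core was 0.02, 0.03 and 0.06. Of the genes with a core, 8 (2.52%) were called higher in WI against Sham. In IR against WI 21 (6.62%) were called higher, and in IR against Sham 19 (5.99%). Without the core the shares were 0.604%, 5.58% and 5.13%. The shares called lower were 1.26%, 2.84% and 2.84% with a core and 0.913%, 1.14% and 1.98% without. Of the 27 genes with at least 2 cores, Isg15, Ifit1 and Ifit3 among them, 2 were called higher and 0 lower in WI against Sham. In IR against WI 2 were called higher and 2 lower. In IR against Sham 5 (18.5%) were called higher, Isg15 and Ifit1 included, and 2 lower. The medians of the 27 genes were 0.10, -0.04 and 0.01 in the same order. These differences were not tested.

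Isg15 and Usp18 encode a protein tag and the enzyme that removes it. Isg15 (chromosome 4 of mm10, 156199424 to 156200818) measured 13.8 FPKM in Sham (95% bounds 6.56 to 21.1), 24.9 in WI (12.8 to 36.9) and 37.0 in IR (19.7 to 54.4). It was lowest in Sham and highest in IR, and the bounds of these samples overlapped only slightly. Its difference was 0.80 ± 0.50 for WI against Sham, 0.56 ± 0.48 for IR against WI and 1.36 ± 0.49 for IR against Sham. The last was called higher, and it was the largest difference between IR and Sham among the 9 genes. Usp18 (chromosome 6, 121245906 to 121270917), which also binds IFNAR2 and dampens the receptor, had an FPKM of 13.0 (6.89 to 19.2) in Sham, 12.1 (6.36 to 17.8) in WI and 11.3 (5.92 to 16.7) in IR. Its differences of -0.10, -0.09 and -0.19 were each smaller than their model error. The ratio of Isg15 to Usp18 was 1.06 ± 0.38 in Sham, 2.06 ± 0.71 in WI and 3.28 ± 1.12 in IR.

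The Ifit genes lie side by side on chromosome 19 and encode proteins that bind viral RNA. Ifit1 (34640889 to 34650009) had an FPKM of 5.01 in Sham (2.52 to 7.50), 6.12 in WI (3.14 to 9.09) and 12.9 in IR (6.92 to 18.9). Only the IR sample stood high, and its bounds still overlapped those of the other samples. The difference of Ifit1 was 0.24 ± 0.43 for WI against Sham, 0.97 ± 0.44 for IR against WI and 1.21 ± 0.44 for IR against Sham, and the last was called. Ifit2 (34550694 to 34576534) had an FPKM of 4.40 in Sham (2.28 to 6.52), 2.23 in WI (1.05 to 3.42) and 2.45 in IR (1.18 to 3.73). Sham was its highest sample, and its differences were -0.74 ± 0.40 for WI against Sham and -0.64 ± 0.40 for IR against Sham. Ifit3 (34583529 to 34588982) had nearly the same FPKM in each sample, with 17.4 in Sham (9.35 to 25.5), 16.7 in WI (8.94 to 24.4) and 16.7 in IR (8.94 to 24.4). The order Ifit3, Ifit1, Ifit2 was the same in each sample, with other gaps between the genes. The ratio of Ifit1 to Ifit2 was 1.14 ± 0.40 in Sham, 2.74 ± 1.01 in WI and 5.26 ± 1.87 in IR.

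Relatives of these genes lie in the same cluster, and reads could be divided between copies. I830012O16Rik, named Ifit3b in RefSeq, carries in front of its start the same 104 of 104 bases as the Ifit3 stretch shown above. Its FPKM was 4.86 in Sham, 4.31 in WI and 4.58 in IR, with differences of -0.14, 0.07 and -0.07 on the log2 scale. The ratio of Ifit3 to I830012O16Rik was 3.58 ± 1.26 in Sham, 3.87 ± 1.38 in WI and 3.64 ± 1.30 in IR. How fragments that match both copies were assigned was not tested, so the level of each is uncertain. The gene 2010002M12Rik (Ifit1bl2 in RefSeq) starts 146 bases from Ifit1 on the other strand, so that its window holds the same pair of ISRE cores. It had an FPKM of 0.0114 in Sham, 0.0611 in WI and 0.396 in IR, and did not pass the filter. Gm14446 (Ifit1bl1) had an FPKM of 0.787, 0.314 and 0.291 in the same order.

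Rsad2 encodes viperin, an enzyme of the endoplasmic reticulum and lipid droplets that makes a chain-terminating nucleotide from CTP. Rsad2 (chromosome 12, 26442743 to 26456452) had an FPKM of 3.69 in Sham (1.86 to 5.53), 1.45 in WI (0.613 to 2.29) and 9.46 in IR (5.07 to 13.8). It was the lowest member in the Sham and WI samples. The bounds of WI and IR did not overlap, which was so for Rsad2 alone among the 9 genes and in 1 of 27 pairs of a member and a comparison. Its difference was -0.94 ± 0.38 for WI against Sham, 2.09 ± 0.40 for IR against WI and 1.16 ± 0.42 for IR against Sham, and the last 2 were called. Cmpk2, its head-to-head neighbour that encodes a nucleotide kinase, had an FPKM of 1.97 in Sham, 1.65 in WI and 2.47 in IR and was not called.

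**Figure D2:**
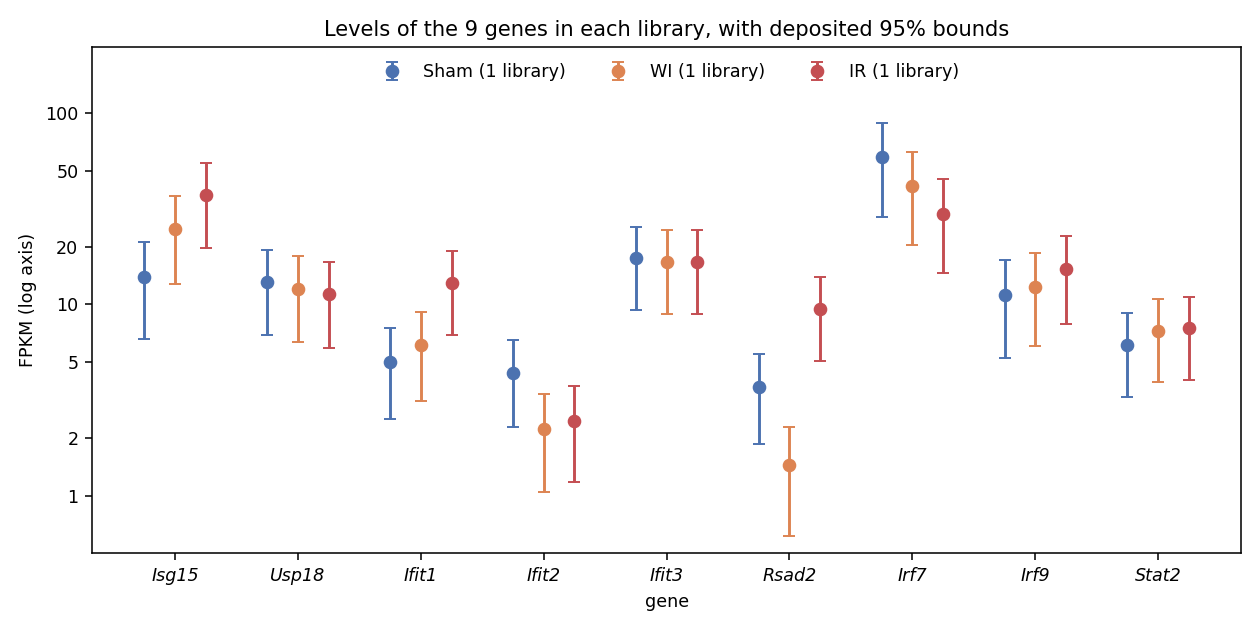
FPKM (log axis) of the 9 genes in the Sham, WI and IR libraries, 1 library each, with bars for the 95% bounds of the files. Isg15, Ifit1 and Rsad2 are highest in IR, Irf7 and Ifit2 are highest in Sham, and only the bounds of Rsad2 in WI and IR lie apart.

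Irf7, Irf9 and Stat2 encode transcription factors of the pathway. Irf7 (chromosome 7, 141263183 to 141266424), which amplifies interferon gene transcription, had an FPKM of 58.8 in Sham (28.6 to 89.0), 41.4 in WI (20.3 to 62.5) and 29.7 in IR (14.6 to 44.9). It was the member with the highest level in the Sham and WI samples, and the second in IR after Isg15. Its difference was -0.50 ± 0.52 for WI against Sham, -0.46 ± 0.52 for IR against WI and -0.96 ± 0.52 for IR against Sham, just short of a call. Irf9 (chromosome 14, 55603985 to 55610030), the DNA-binding subunit of ISGF3, had an FPKM of 11.2 in Sham (5.25 to 17.1), 12.2 in WI (6.06 to 18.4) and 15.3 in IR (7.86 to 22.7). Stat2 (chromosome 10, 128270576 to 128292849), the subunit that carries the transactivation domain, had an FPKM of 6.14 in Sham (3.29 to 8.99), 7.29 in WI (3.91 to 10.7) and 7.48 in IR (4.02 to 11.0). The bounds of Irf9 and Stat2 overlapped widely over the samples. Their differences between IR and Sham were 0.42 ± 0.49 and 0.25 ± 0.42, each under its model error. Both were below 0 (-0.12 and -0.27) when FPKM was rescaled to a common sum, where the median of all genes was -0.45. Relative to that median, Irf9 was at 0.33 and Stat2 at 0.18.

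Compared as levels, the 9 genes covered a 15.9-fold range in Sham, 28.5-fold in WI and 15.1-fold in IR. The order in Sham was Irf7, Ifit3, Isg15, Usp18, Irf9, Stat2, Ifit1, Ifit2, Rsad2, and only Irf7 and Ifit3 were neighbours whose bounds did not overlap. In WI no neighbours had bounds apart. In IR the order was Isg15, Irf7, Ifit3, Irf9, Ifit1, Usp18, Rsad2, Stat2, Ifit2, and only Stat2 and Ifit2 lay apart. Summed over the 9 genes, FPKM was 133 in Sham, 124 in WI and 142 in IR.

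Between WI and Sham, 0 of the 9 genes were called higher and 0 lower, where 0.751% of all genes that passed the filter were called higher and 1.1% lower. The bounds were apart for 0 members and for 0.676% of all genes. Rsad2 was just short of a call, and it was called lower with a pseudocount of 0.1 (-1.29) or 0.01 (-1.34) and with FPKM rescaled to a common sum (-1.14). The median difference of the members was -0.06, from -0.94 for Rsad2 to 0.80 for Isg15. Between IR and WI, Rsad2 was called higher and no member lower, with 5.78% and 1.43% of all genes in these directions, and the bounds of 3.61% of all genes were apart. The median of the members was 0.10. Between IR and Sham, Isg15, Ifit1 and Rsad2 were called higher (3 of 9) and none lower, with 5.35% and 2.15% of all genes. Here the bounds were apart for 0 members and for 3.82% of all genes. These 3 calls depended on the scaling: when FPKM was rescaled to a common sum in each library (TPM), 0 members were called higher and 2 lower, Irf7 (-1.54) and Ifit2 (-1.21), and Isg15, Ifit1 and Rsad2 were at 0.82, 0.73 and 0.70. The median was 0.25, with 5 members above 0 and 4 below. The comparisons share libraries, so a high or low value of 1 library enters more than one of them. With TPM the medians of the members turned to -0.33 for IR against WI and -0.27 for IR against Sham, while the median of all genes moved to -0.45 in both. Relative to that median, Isg15, Ifit1 and Rsad2 were still higher in IR than in Sham by 1.27, 1.18 and 1.16, and Irf7 was at -1.09.

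**Figure D3:**
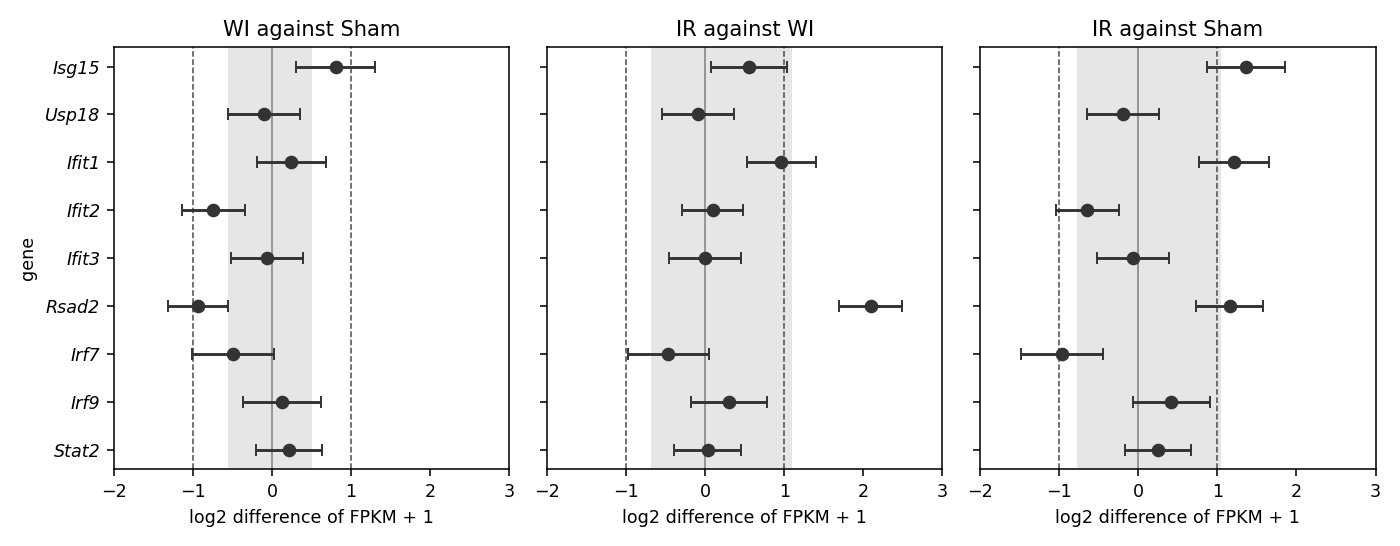
Differences of the 9 genes in log2(FPKM + 1) for WI against Sham, IR against WI and IR against Sham (points), with bars of 1 model standard error from the bounds. The grey band holds 5% to 95% of the 10792 genes and the dashed lines mark 2-fold: 0 members pass them in WI against Sham, 1 in IR against WI and 3 in IR against Sham.

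Ligands of the pathway had no detected level in nearly all cases. Of 19 interferon genes in the files, 17 were listed at 0 in every sample, Ifnb1 and every measured Ifna gene among them. The others were Ifnk, at 0.0659 in IR with a lower bound of 0 and at 0 in the other samples, and Ifng, at 0.0362 in Sham, 0.0987 in WI and 0.135 in IR. For Ifng the lower bound was 0 in every sample. Of 9 receptor and kinase genes, 8 passed the filter and 0 were called in any comparison. Ifnar1 had an FPKM of 5.08 in Sham, 4.75 in WI and 4.31 in IR. Ifnar2, the other chain of the receptor, had 43.1, 52.8 and 70.2. The kinase genes were Jak1 (20.7, 20.2 and 38.8), Jak2 (3.56, 3.75 and 6.83) and Tyk2 (3.77, 4.47 and 3.56). For the receptors of related cytokines the values were 14.5, 9.73 and 8.09 for Ifngr1, 9.81, 8.36 and 12.2 for Ifngr2, and 7.36, 5.24 and 5.93 for Il10rb.

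Values of STAT genes differed among themselves. Stat3, which acts downstream of IL-6, had an FPKM of 19.5 in Sham, 24.0 in WI and 52.3 in IR, and was called higher in IR against both. Stat5a had 1.81, 2.41 and 4.96 and was called in IR against Sham. Stat4 did not pass the filter. Stat5b (8.18, 10.8 and 11.0) and Stat6 (12.4, 13.2 and 11.1) were not called. Of the interferon regulatory factors that passed the filter, 0 were called, Irf7 and Irf9 included. Irf1, which interferon gamma induces, was closest in WI, with a difference of 0.99 ± 0.48 (FPKM 8.06 in Sham, 17.0 in WI and 15.3 in IR). None of the following was called either: Irf2 (13.8, 14.6 and 16.6), Irf3 (13.6, 16.5 and 16.1), Irf5 (4.68, 5.03 and 5.88) and Irf8 (5.24, 3.89 and 3.87).

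Of 50 other type I ISGs listed, 48 were in the files and 46 passed the filter. They did not move in one direction, with a median of -0.06 for WI against Sham, -0.03 for IR against WI and -0.10 for IR against Sham. In IR against Sham 3 of 46 were called higher and 1 lower, with 5.35% and 2.15% of all genes, and 42 were within 2-fold. Those called higher were Mx2, a dynamin-like GTPase (1.21 ± 0.42), Oasl1, which represses translation of Irf7 (1.21 ± 0.45), and the exonuclease Isg20 (1.26 ± 0.57). Epsti1 was called lower (-1.19 ± 0.46). In WI against Sham 1 of 46 was called higher and 1 lower, Ifi27l2a (-1.16 ± 0.51). In IR against WI Oasl1, Isg20 and Ifi204, a DNA sensor (1.06 ± 0.44), were called higher and 1 of 46 lower. The shares of all genes called higher and lower were 0.751% and 1.1% in WI against Sham, and 5.78% and 1.43% in IR against WI. The bounds were apart for 0 of the 46 in each comparison. Of all genes they were apart for 0.676% (WI against Sham), 3.61% (IR against WI) and 3.82% (IR against Sham). With TPM, 0 of them were called higher and 10 lower in IR against Sham, and their median moved to -0.65. The median of all genes moved to -0.45 with TPM, and the share of all genes called with TPM was not computed.

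The other 5 genes for ISG15 conjugation were not called in any comparison. Uba7, the activating enzyme, had an FPKM of 4.85 in Sham, 6.89 in WI and 2.98 in IR. Ube2l6, the conjugating enzyme, had 45.3, 74.4 and 53.7, and the ligase Herc6 had 3.72, 4.80 and 2.87. These 3 genes were highest in WI, whereas Isg15 was highest in IR. The ligase Arih1 (9.26, 8.35 and 10.8) was also highest in IR, and the ligase Trim25 (16.3, 15.0 and 14.7) was highest in Sham.

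Some genes that interferon gamma induces gave another picture. Of 20 listed, 16 passed the filter, and 7 of these were called higher in WI against Sham and 0 lower, with a median of 0.91. Of all genes, 0.751% were called higher and 1.1% lower there. The other 9 were within 2-fold, from -0.03 for Socs1 to 0.99 for Irf1, with Gbp5 at 0.03, Cxcl9 at 0.04 and Tap1 at 0.34. The immunity-related GTPases Igtp (21.5 in Sham, 71.2 in WI, 25.1 in IR) and Tgtp1 (9.79, 46.7 and 6.08) had bounds apart between Sham and WI. Iigp1, Irgm1, Ifi47 and Tgtp2 were the other GTPases called, and Cxcl10 was the chemokine called. Tgtp1 and Tgtp2 are near-identical copies, so the split of reads between them is uncertain. Between IR and WI 2 of the 16 were called higher, Cxcl10 and Socs1, and 4 lower (Tgtp1, Tgtp2, Igtp and Iigp1). Between IR and Sham 4 were called higher (Cxcl10, Socs1, Irgm1 and Ifi47) and 0 lower. Of all genes, 5.78% were called higher and 1.43% lower in IR against WI, and 5.35% and 2.15% in IR against Sham. Cxcl10, a chemokine that both types of interferon induce, had an FPKM of 3.76 in Sham, 10.4 in WI and 22.6 in IR. Which type of interferon, if any, lay behind the values of the genes in this list was not tested.

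**Figure D4:**
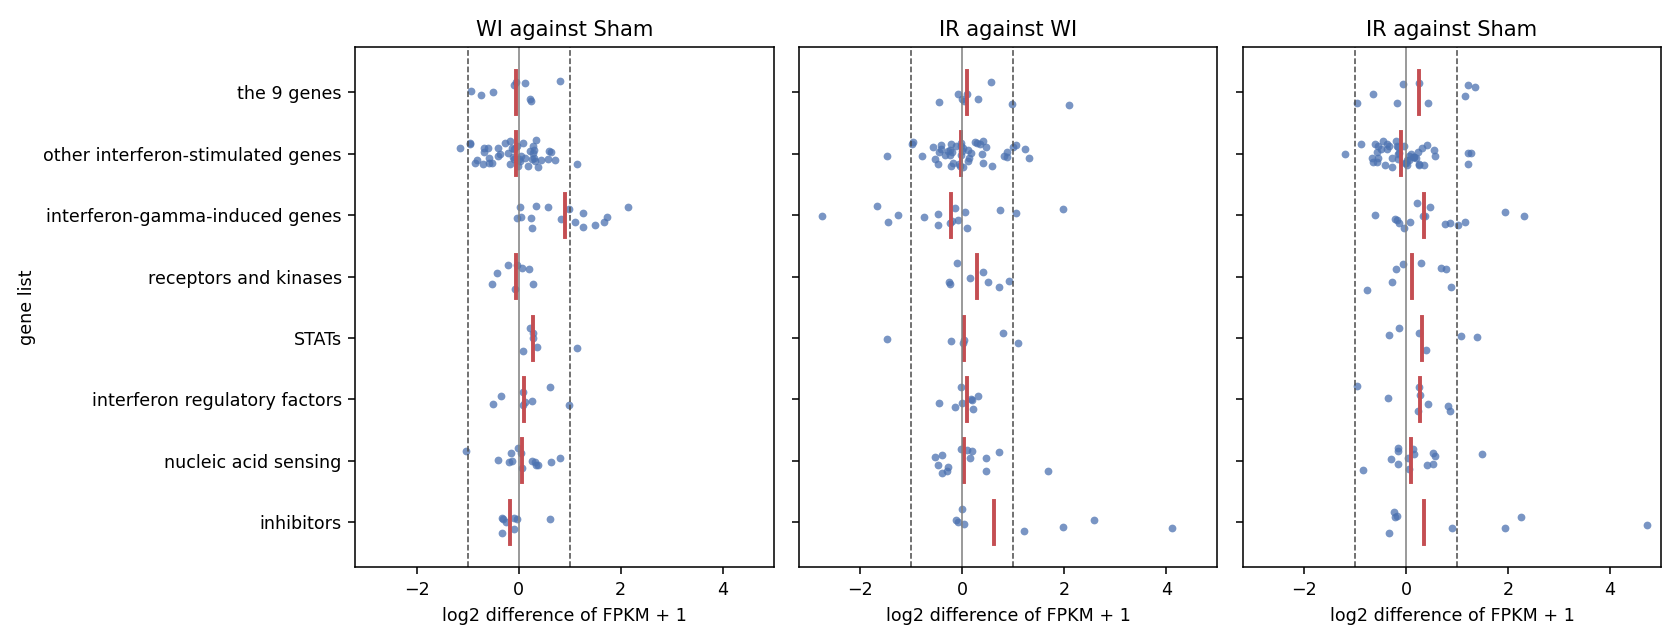
Differences in log2(FPKM + 1) of single genes (points) for each gene list, among genes that passed the filter, with the median of the list in red and dashed lines at 2-fold. The 9 genes and the other ISGs lie around 0 in WI against Sham, where the median of the interferon-gamma-induced genes is 0.91.

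Some inhibitors of the pathway were called in IR. Of 8 inhibitor genes, Usp18 included, 4 were called higher in IR against WI and 3 in IR against Sham, with 0 lower. Of all genes, 5.78% were called higher and 1.43% lower in IR against WI, and 5.35% and 2.15% in IR against Sham. Socs1, which blocks JAK1 and TYK2, had an FPKM of 0.424 in Sham (0.0209 to 0.828), 0.400 in WI (0 to 0.874) and 4.49 in IR (1.78 to 7.19). Socs3 had 3.14, 5.38 and 109. Ptpn2, a phosphatase of JAK1, had 6.78, 5.25 and 36.2, and Ptpn1, a phosphatase of TYK2 and JAK2, had 8.43, 6.62 and 16.5 and was called in IR against WI. Pias1 (4.40, 3.31 and 3.29), Ptpn6 (10.2, 9.46 and 8.65) and Ptpn11 (12.9, 10.6 and 10.9) were not called. Of 17 genes for nucleic acid sensing in the files, 14 passed the filter. Tlr7 was called lower in WI against Sham (-1.03 ± 0.37) and Myd88 higher in IR against WI (1.68 ± 0.46) and against Sham (1.49 ± 0.46). The share of all genes called lower in WI against Sham was 1.1%. The RNA sensors Ddx58 (4.78, 6.52 and 4.19) and Ifih1 (6.66, 8.71 and 6.97) were not called.

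Markers of other cell types moved between the same libraries. In a tissue sample, fewer cells of a type and less RNA per cell cannot be told apart. The summed FPKM of 6 Kupffer cell and macrophage markers was 281 in Sham, 156 in WI and 102 in IR, and 4 of the 6 were called lower in IR against Sham. Of all genes, 2.15% were called lower in that comparison. Clec4f, a lectin of Kupffer cells, had 115, 65.3 and 32.7. Marco (20.9, 12.6 and 25.3) was highest in IR, and Cd68 (18.5, 12.3 and 18.5) was level between Sham and IR. Irf7 had its highest level in Sham and its lowest in IR, as Clec4f did. Ratios of Irf7 were computed only to the 4 markers called lower in IR against Sham, and not to Marco or Cd68. The differences of Marco and Cd68 between IR and Sham were 0.27 and -0.00075, where that of Irf7 was -0.96. Relative to them, Irf7 was lower in IR than in Sham. The ratio of Irf7 to Clec4f was 0.512 ± 0.195 in Sham, 0.634 ± 0.231 in WI and 0.910 ± 0.323 in IR. That to Vsig4 was 0.867 ± 0.310, 1.18 ± 0.414 and 2.40 ± 0.864, that to Csf1r 1.63 ± 0.592, 2.01 ± 0.712 and 3.57 ± 1.26, and that to Emr1 2.61 ± 0.928, 4.25 ± 1.49 and 5.88 ± 2.12. The summed FPKM of 5 neutrophil markers was 25.3, 19.2 and 465, and all 5 were called higher in IR against both other samples. Of all genes, 5.78% were called higher in IR against WI and 5.35% in IR against Sham. Of the members, Rsad2 was called higher in both of these comparisons, and Isg15 and Ifit1 in IR against Sham. For 5 plasmacytoid dendritic cell markers, cells known for interferon secretion, 3 were under an FPKM of 1 in every sample, and Siglech had 0.367, 0.198 and 0.138 FPKM. T and NK cell markers summed to 5.17, 4.44 and 2.73, B cell markers to 2.53, 1.46 and 1.03, and endothelial markers to 112, 85.5 and 76.0. Of 5 endothelial markers, Kdr was called lower in IR against Sham (-1.04). In that comparison 4 of the 5 were below 0 and 1 was above it, at 0.41. In IR against WI 2 of the 5 were above 0, up to 0.96. No marker of these lists was at 0 in any sample other than Alb. The part of cell composition in the values of the 9 genes was not tested.

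**Figure D5:**
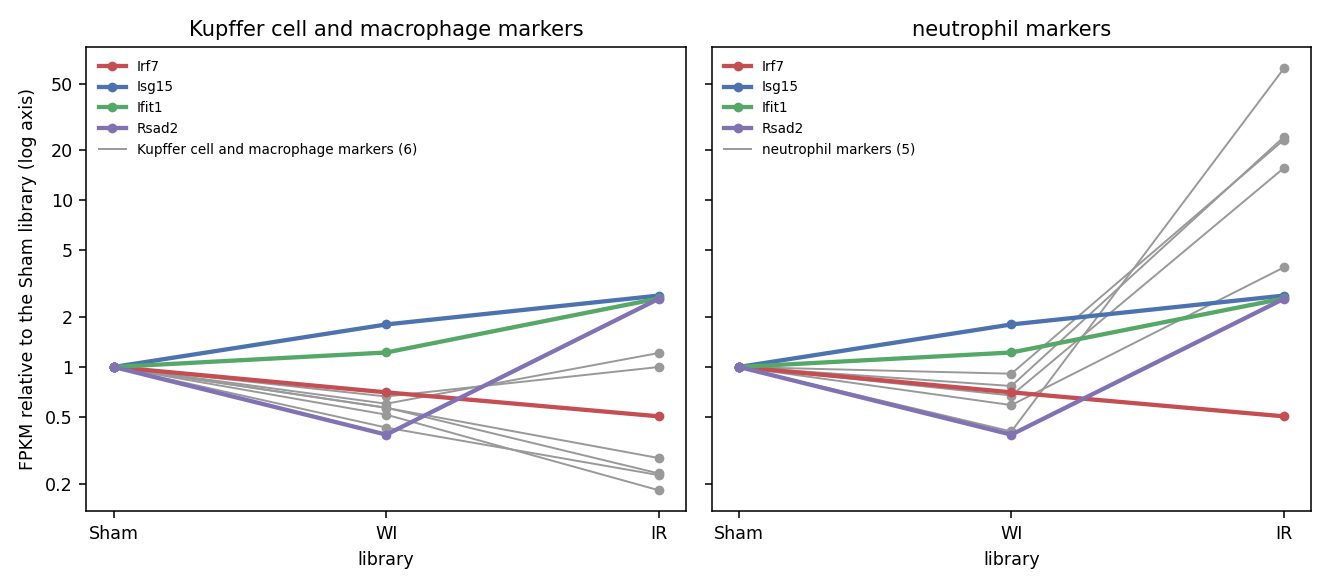
FPKM relative to the Sham library (log axis) in the Sham, WI and IR libraries for Irf7, Isg15, Ifit1 and Rsad2 (colored) and for 6 Kupffer cell and macrophage markers (left, grey) and 5 neutrophil markers (right, grey). Irf7 is lowest in IR, as are 4 of the 6 macrophage markers, and all 5 neutrophil markers are highest in IR.

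Other genes had patterns over the 3 samples like those of single members. Likeness was the distance between the pairs of differences (WI against Sham, IR against Sham) among 6630 genes that reached an FPKM of 5 in any library. The nearest to Isg15 were Cbs (distance 0.0184 on the log2 scale), Slc22a7 (0.0428) and Id2 (0.0725). Ifit1 had Akr1b7 (0.0439), Myh9 (0.0598) and Pi4k2a (0.0616), and Rsad2 had Angptl4 (0.0263), E2f8 (0.0965) and Slfn2 (0.107). Nearest to the medians of the 9 genes were H2-Q4 (0.00143), Mocs2, Pnpla7, Rnf114 and Eif1ax, all within 0.00905. With 3 samples such a distance only describes these libraries.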

How the data were processed

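Liver mRNA of 3 groups (Sham, WI and IR) was sequenced by the authors, with 1 library per group. They mapped read pairs to mm10 with Tophat2 2.0.9 and deposited FPKM per gene with 95% bounds from Cuffdiff (Cufflinks 2.0.2) at default parameters. The deposited FPKM values have no counts, so the depth per gene is unknown. All 9 members had status OK in each sample, and 37 of the 10792 genes tested had another status in a sample.

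Differences in log2(FPKM + 1) were computed in Python 3.11.15 with numpy 2.4.6 and pandas 2.3.3, and figures with matplotlib 3.10.9. Genes that reached an FPKM of 1 in any library were kept. The model standard error is the distance from FPKM to its upper bound, divided by 1.96 and by FPKM + 1, put on the log2 scale and combined over both samples. With 1 library per group, no p-value is given. File coordinates were moved to count from 1. The members, lists and thresholds were chosen with earlier results of these data known. By rule, the text named the members, Ifit relatives, ligands, receptors, STATs and IRFs, genes of other lists called or extreme in a comparison, and genes nearest in pattern. Other named genes and the ratios were chosen after their values were seen. Functions were tested on simulated data. Alternatives were other pseudocounts, filters, scalings and fold thresholds. Results of 2 listed genes are not reported here.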

Additional observations from a re-analysis of the deposited data

How the results depend on the processing

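No paired analysis was possible because each group has 1 library, and for the same reason no library could be left out. Counts of called genes are given as members and then other ISGs. With a pseudocount of 0.1, the counts were 1 (Rsad2, also with 0.01 and TPM) and 5 lower in WI against Sham, 2 and 6 higher in IR against WI, 3 other ISGs lower in IR against WI and 2 lower in IR against Sham. With 0.01 they were 1 and 6, 2 and 6, 4 and 2. With TPM, 1 and 4 were lower in WI against Sham. In IR against WI with TPM, 1 and 8 were lower and 0 other ISGs higher, with medians of -0.33 and -0.52. In IR against Sham with TPM, 0 and 0 were higher and 2 and 10 lower, with medians of -0.27 and -0.65. With TPM the median of all genes was -0.45 in IR against WI and in IR against Sham. The divisors for TPM were 0.476, 0.488 and 0.712 for Sham, WI and IR. With median-ratio size factors, 3 other ISGs were lower in IR against WI and 1 member, Irf7 (-1.04), was lower in IR against Sham. At 1.5-fold, 1 and 4 were higher and 2 and 9 lower in WI against Sham, 2 and 8 higher and 4 other ISGs lower in IR against WI, and 2 and 5 lower in IR against Sham. At 4-fold, 0 members were higher in IR against Sham and 0 other ISGs were called in any comparison. The remaining 89 counts and medians stayed near their values. Of 159 differences of single members under an alternative, 8 had another sign, 6 of them with TPM, and none of these 8 had been called. The 159 include values under other filters, which leave the difference of a member unchanged, so only other pseudocounts and scalings could change a sign.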
